A study of Mus musculus with 38 samples.

Results

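The promoters of the cyclic AMP response were followed in the soleus muscle of mice passing through fasting-induced torpor. The 9 genes of the set encode cyclic AMP phosphodiesterases (Pde4a, Pde4b, Pde4d and Pde7a), orphan nuclear receptors of the NR4A family (Nr4a1, Nr4a2 and Nr4a3), the transcription factor CREM and the salt-inducible kinase SIK1. A promoter was assigned to a gene when the highest position of its tag cluster was no more than 500 bp away, on the same strand, from a 5′ end that GENCODE annotates for the gene. By this rule 10 of the 10819 promoter clusters belonged to 6 of the 9 genes, and Pde4b, Nr4a2 and Nr4a3 had no cluster. Pde4d had 4 of the 10 promoters, called p1 to p4 in the order of their mean level, and Crem had p1 and p2.

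Cyclic AMP is the second messenger made by adenylyl cyclases when hormone receptors coupled to them are activated, and it is broken down by phosphodiesterases. In the nucleus, protein kinase A phosphorylates CREB, which acts at sites called cyclic AMP response elements, and several products of its target genes then dampen the signal: PDE4 enzymes hydrolyse cyclic AMP, the CREM repressor ICER blocks the same sites, and SIK1 restrains the CREB coactivators. In skeletal muscle this pathway is known for carrying adrenergic input to fuel metabolism, and NR4A receptors are known as genes that respond early to that input.

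All 38 libraries came from C57BL/6J males, with 1 library per mouse, and promoter activity was measured by nAnT-iCAGE, a method that sequences the capped 5′ ends of RNA without amplification. In experiment 1, muscles were taken at low ambient temperature on day 1 before fasting (Pre, n = 4), on day 2 when food had been withdrawn and the mice were in a bout of torpor or between bouts (Mid, n = 8), and on day 3 after food was returned (Post, n = 4). Torpor was prevented on day 2 in 3 further groups of 4 mice: HiT mice fasted at a high ambient temperature, Fed mice kept their food at the low temperature, and Dep mice fasted at the low temperature but were touched gently to keep them from torpor. Experiment 2, an independent batch of other mice, repeated Pre (n = 2), Mid (n = 5) and Post (n = 3). The paper names NextSeq and HiSeq platforms for the sequencing of experiments 1 and 2. GEO's labels for the Fed and HiT groups are at odds with the study's description of their food, and the groups are used here as the study describes them.

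The clusters held between 18257657 and 39176649 tags per library in experiment 1 and between 9359994 and 20914855 in experiment 2, and a member promoter had between 49 and 4181 tags in a library. All 10 soleus muscle markers chosen for the check were found, and between Mid and Pre none of them was called. The HiT libraries stood apart from the Mid libraries in markers of other cells: all 8 of the measured macrophage markers were called lower in Mid, and their summed level was 156 to 460 TPM (tags per 1000000) in HiT and 55.4 to 85.7 TPM in Mid, with Adgre1 lacking a cluster. The summed tendon and fibroblast markers reached 6000 TPM in library HiT 1, and 3 of 8 were lower in Mid. Against HiT, 5 of the 10 soleus markers were higher in Mid and 1 lower, and of 6 smooth muscle and pericyte markers 3 were higher and 1 lower. Of 8 endothelial markers, 4 were lower and 2 higher in Mid than in Pre. The 4 measured neutrophil markers of 8 summed to 117 TPM in library Dep 1 and to at most 0.824 TPM in the other Dep libraries. In these bulk samples fewer cells of a type and less RNA per cell cannot be told apart.

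Each promoter lay as follows in the mm10 (GRCm38) build, with the highest position given and the coding length taken from a GENCODE transcript that starts nearby. The 4 Pde4d promoters are on the plus strand of chromosome 13 at 109686007 (p3, at -149 bp from the start of a transcript of 678 codons), 109902972 (p4), 109903398 (p2, 292 bp inside a transcript of 584 codons) and 109925093 (p1, 30 bp inside a transcript of 504 codons). Pde4d p1 is therefore the most downstream of the 4, and it starts the shortest of these coding regions, where the longest annotated Pde4d transcript has 803 codons. Pde4a was read at position 21184122 of chromosome 9 (plus strand, 787 codons), Pde7a at 19264967 of chromosome 3 (minus strand, with a coding transcript of 456 codons starting 41 bp away) and Nr4a1 at 101266845 of chromosome 15 (plus strand, 601 codons). Sik1 was read at 31855798 of chromosome 17 on the minus strand, 6 bp from the start of a transcript of 779 codons.

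The 250 bases before the RefSeq start (GRCm38.p6) are shown for the members whose sequence was at hand. These sequences carry TGACG, a part of the cyclic AMP response element TGACGTCA, but not the whole element. CREB and CREM are known to bind that element. Capitals mark TGACG on either strand, here CGTCA in each case since all matches were on the minus strand. The windows are chr9:21183851-21184100 for Pde4a and chr15:101266596-101266845 for Nr4a1, both on the plus strand.
Pde4a: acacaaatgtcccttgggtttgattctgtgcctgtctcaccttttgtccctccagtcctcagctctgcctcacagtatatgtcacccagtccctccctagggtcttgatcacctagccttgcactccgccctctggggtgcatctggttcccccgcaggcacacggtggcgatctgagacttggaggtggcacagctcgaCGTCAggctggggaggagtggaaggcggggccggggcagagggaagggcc
Nr4a1: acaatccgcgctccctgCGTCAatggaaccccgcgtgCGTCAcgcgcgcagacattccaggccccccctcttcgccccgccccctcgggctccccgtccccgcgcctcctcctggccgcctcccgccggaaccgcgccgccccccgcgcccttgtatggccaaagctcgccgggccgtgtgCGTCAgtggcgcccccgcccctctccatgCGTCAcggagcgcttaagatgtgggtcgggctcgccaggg
Nr4a1 held 4 matches, and Pde4a held 1, from -50 to -46 counted from the start. The windows of Nr4a2 and Nr4a3, whose promoters had no cluster in this muscle, held 4 each. Of all 32851 RefSeq windows of this length, 17.8% held at least 1 TGACG on either strand and 0.137% held at least 4. The full palindrome TGACGTCA, which contains TGACG on both strands, was in none of these 4 windows and in 1.55% of all windows. A match is a description of letters and not a binding site, and the Pde4d, Pde7a, Crem and Sik1 promoters were not searched.

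Across the 6 groups of experiment 1, 9 of the 10 promoters differed at a false discovery rate (FDR) below 0.05 in edgeR's quasi-likelihood test, where 70.6% of all clusters did, and only Pde4d p3 missed the threshold (FDR 0.064). In Mid against Pre, 4 promoters were higher (Pde4d p1, Pde4d p2, Pde7a and Sik1) and 2 were lower (Pde4a and Nr4a1), so that 6 of 10 changed where 30.2% of all clusters did, 15.4% upward and 14.8% downward. From the Mid to Post, 1 rose (Pde4a) and 5 fell (Pde4d p1, p2 and p4, Pde7a and Sik1), with a background of 35.0% in all and 17.5% in each direction. Between Pre and Post none of the 10 was called (1.85% of all clusters), and 1 had an unadjusted p below 0.05, as had 12.8% of all clusters. Without its sign, the log2 difference between Mid and Pre had a median of 0.64 over the members and 0.2 over all clusters.

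The groups in which torpor was prevented gave different sets. Against HiT, 6 promoters were higher in Mid (Pde4d p1 and p3, Pde7a, both Crem promoters and Sik1) and 1 was lower (Nr4a1), against 41.0% of all clusters, 19.2% higher and 21.8% lower. Against Fed, 4 were higher in Mid (Pde4d p1 and p2, Pde7a and Sik1) and 2 lower (Pde4a and Nr4a1), against 35.2% in all, 16.6% higher and 18.6% lower. Between Dep and Mid no member was called by edgeR, by its likelihood ratio test or by DESeq2, where 2.03% of all clusters were called, and 3 had an unadjusted p below 0.05, as had 19.2% of all clusters. All of these comparisons share the Mid libraries.

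HiT differed from Pre at 5 promoters (33.4% of all clusters), Dep at 4 (25.8%) and Fed at none (11.2%), with no member at an unadjusted p below 0.05 for Fed. Counting neighbours in the order of the 6 group means, 6 of 50 neighbouring pairs differed. Each promoter has its own order, and no share over all clusters was computed for this count, so it is only a description. The order is of TPM means, while the tests are of TMM-scaled counts. Some pairs that were not called therefore had a difference of the other sign, such as Sik1 in Fed and HiT (-0.1, FDR 0.852).

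**Figure D1:**
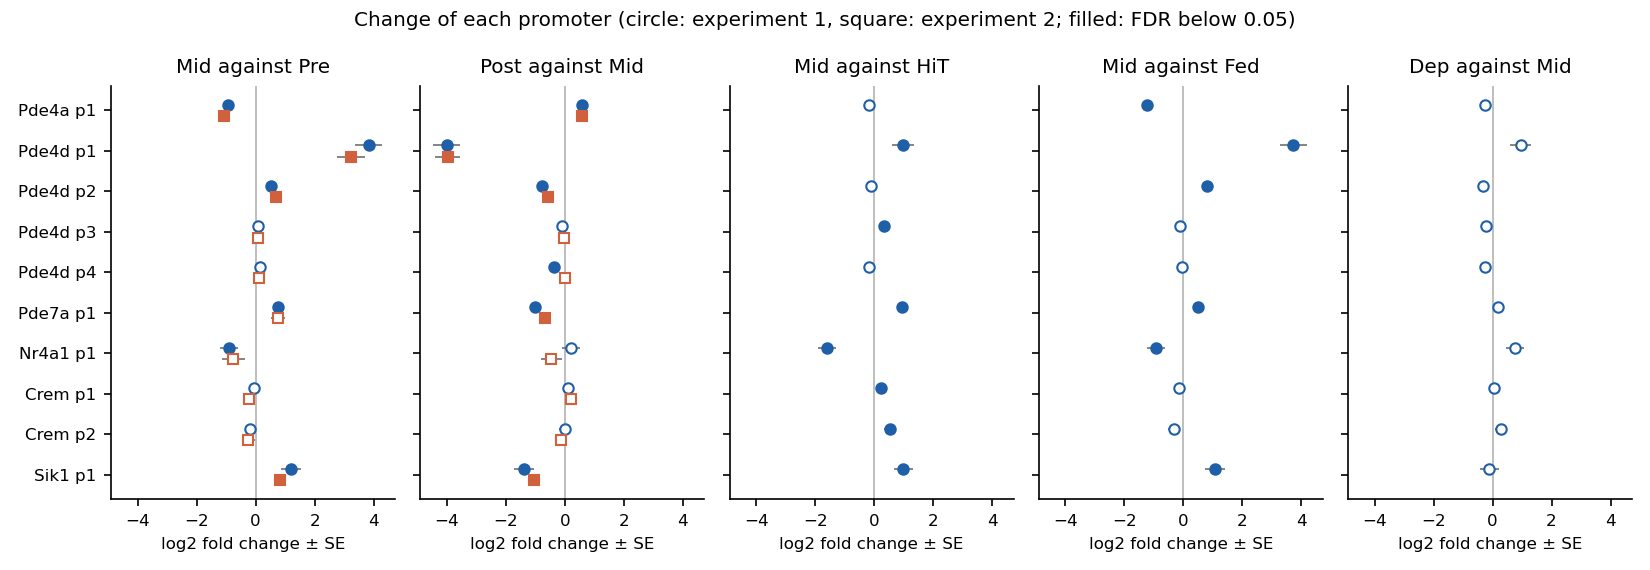
Change of each of the 10 promoters in 5 comparisons, as log2 fold change with its standard error on the x axis. Circles are experiment 1, squares experiment 2, and filled symbols had an FDR below 0.05. Pde4d p1 has the largest changes among the 10 promoters in Mid against Pre, Post against Mid and Mid against Fed, and no symbol is filled in Dep against Mid.

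Pde4d encodes a cyclic AMP phosphodiesterase of the PDE4 family. Its most downstream promoter, p1, rose from 2.99, 3.81, 2.0 and 10.1 TPM in the Pre libraries to between 14.4 and 112 TPM in Mid, with a median of 67.9. In Post it was 1.89, 7.57, 3.75 and 2.69 TPM. No Mid library overlapped with Pre or Post, and the lowest Mid library, Mid 6, was the nearest to them.

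On the log2 scale Pde4d p1 rose by 3.83 ± 0.46 (SE, FDR 1.08e-06) in Mid, 14.2-fold, and Post was below Mid with a difference of -4.0 ± 0.46 (FDR 3.47e-07). In edgeR's fit without Mid 6 the rise was 3.98 (FDR 3.42e-08), and without Pre 4, the highest Pre library, it was 4.49 (FDR 7.42e-07). Fed libraries held 3.29, 4.17, 5.79 and 7.0 TPM, all below every Mid library (3.73 ± 0.45, FDR 9.72e-07).

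HiT libraries lay between, at 39.1, 22.4, 41.1 and 16.2 TPM, above all Pre, Post and Fed libraries and below every Mid library except Mid 6. HiT was above Pre by 2.84 ± 0.47 (FDR 3.64e-05), and Mid was above HiT by 0.98 ± 0.38 (FDR 0.0388). The call between Mid and HiT was lost under 10 of 36 alternatives, and without HiT 1, HiT 2 or HiT 4 its edgeR FDR was 0.0597, 0.121 and 0.0985. The macrophage markers that were higher in HiT are given above, and their part in this difference was not tested.

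Dep libraries held the highest mean, at 71.4, 130, 153 and 99.0 TPM. They overlapped with Mid, and the difference of 0.95 ± 0.35 between Dep and Mid had an FDR of 0.137. Dep was above Pre by 4.77 ± 0.5 (FDR 2.2e-07) and above HiT by 1.93 ± 0.43 (FDR 0.00147), with no overlap. The order of means was Dep, Mid, HiT, Fed, Pre and Post, and of these neighbours Mid and HiT and HiT and Fed differed (FDR 0.0388 and 4.45e-05), while Dep and Mid, Fed and Pre, and Pre and Post missed the threshold (FDR 0.137, 0.919 and 0.927).

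The other 3 Pde4d promoters had smaller changes than p1 from the Pre to Mid. Pde4d p2, about which 25.1 to 29.7 TPM were read in Pre, had a Mid range of 19.8 to 52.4 TPM with a median of 37.7, and 16.9 to 25.8 TPM in Post. Mid was above Pre by 0.53 ± 0.14 (FDR 0.00612), and Post was below Mid by a log2 change of -0.77 ± 0.14 (FDR 0.000176), although Mid 6, the lowest Mid library, fell within the Post range. The first of these calls was lost without TMM scaling and with limma on log2 TPM. Pde4d p3 and p4 had Mid means of 12.6 ± 1.49 and 8.97 ± 1.4 TPM (SD, n = 8) and changed from the Pre to Mid by 0.07 ± 0.12 and 0.16 ± 0.13 (FDR 0.704 and 0.388). Another cluster on the Pde4d strand lay outside the rule, at -1059 bp from the nearest annotated start. It held 3.01 ± 0.746 TPM in Pre (n = 4) and 3.41 ± 0.778 in Mid (n = 8), and was not called (0.27 ± 0.33).

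Pde4d p4 fell from the Mid to Post by -0.36 ± 0.13 (FDR 0.0384), a call that was lost under 12 of 37 alternatives. HiT, at 28.6 to 43.4 TPM, was above Pre at p2 by 0.65 ± 0.16 (FDR 0.00286, lost without TMM and with limma) and above Fed by 0.91 ± 0.16 (FDR 8.29e-05), and its difference from Mid missed the threshold (Mid against HiT -0.12 ± 0.14, FDR 0.522). Fed, at 19.2 to 27.8 TPM, was below Mid at p2 (Mid against Fed 0.79 ± 0.14, FDR 0.00014). The call for p3 between Mid and HiT (0.34 ± 0.13, FDR 0.0323) was lost under 8 of 36 alternatives.

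The balance among the Pde4d promoters moved. In Pre, p1 gave 8.43% ± 5.45 (SD, n = 4) of the Pde4d tags and p2 gave 51.3% ± 3.38, whereas in Mid p1 gave 49.4% ± 12.1 (n = 8) and p2 31.5% ± 7.04. In Post and Fed the share of p1 was 8.65% ± 4.9 and 9.79% ± 3.41, in HiT 33.7% ± 8.38 and in Dep 70.7% ± 7.44 (n = 4 each). The Mid libraries ranged from 27.7% to 67.9%, above every Pre, Post and Fed library, and the 4 Dep libraries ranged from 60.1% to 77.3%.

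The share of p1 in Mid was higher by 41.0 percentage points than in Pre, by 40.7 than in Post and by 39.6 than in Fed, each with p = 0.00202 in a two-sided exact permutation test, the smallest that 495 divisions of the libraries allow (FDR 0.0159). Over all 460 genes with several clusters and the 5 comparisons with Mid, 24.6% of 2300 such tests were called. Against HiT the share was higher by 15.7 points (exact p = 0.0465, FDR 0.126), which missed the threshold. Against Dep it was lower, at -21.3 points (exact p = 0.0121, FDR 0.0493), a call lost under 25 of 29 alternatives.

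**Figure D2:**
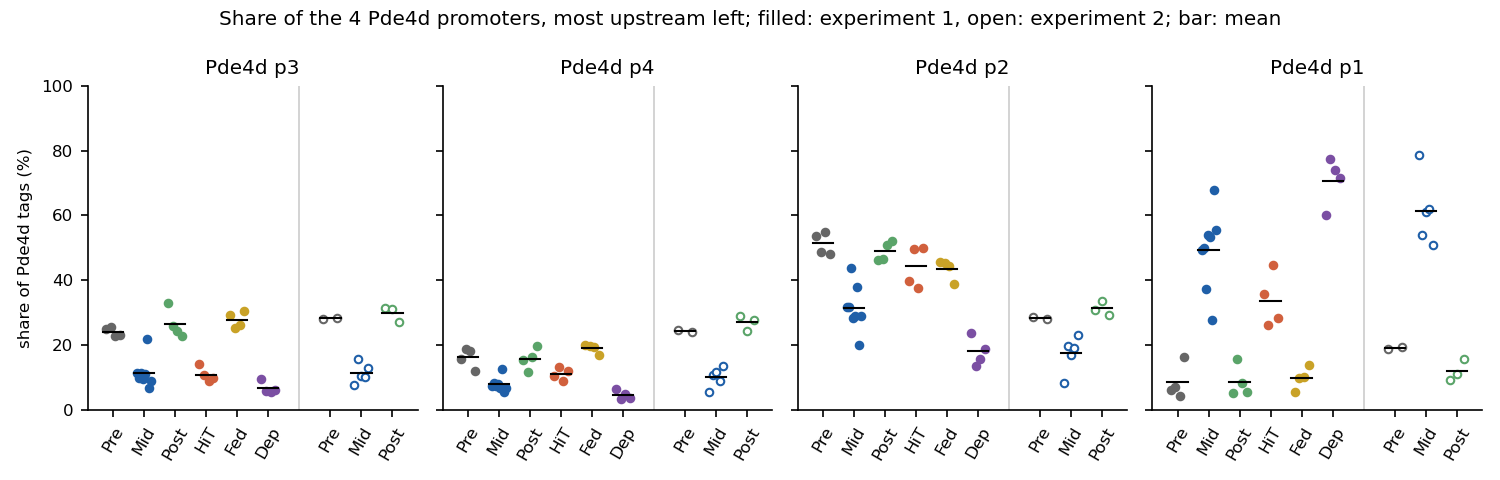
Share of the Pde4d tags from each of its 4 promoters, in percent, by group, with the most upstream promoter at the left; each point is a library and the bar is the group mean. Pde4d p1 gives 27.7% to 67.9% of the tags in the Mid libraries of experiment 1 and at most 16.4% in Pre.

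Pde4a, another PDE4 gene, went the other way. It was at 14.7, 25.1, 18.6 and 21.2 TPM in Pre, and at 7.62 to 11.7 TPM in Mid with a median of 9.68. In Post it was at 14, 12.3, 16.2 and 15.9 TPM. Every Mid library was below every Pre and Post library, and Post was below 3 of the 4 Pre libraries.

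Pde4a fell from the Pre to Mid by -0.95 ± 0.14 (FDR 2.02e-05) and rose from the Mid to Post by 0.58 ± 0.15 (FDR 0.00293). Fed mice held the highest level, at 26.3, 18.9, 29.3 and 24.0 TPM, and Mid was below Fed by -1.23 ± 0.14 (FDR 5.69e-07). The other fasted groups overlapped with Mid: HiT libraries were at 9.51, 14.3, 7.82 and 8.32 TPM and Dep libraries at 8.74, 7.05, 7.38 and 7.17 TPM. Neither differed from Mid at the threshold (-0.16 ± 0.15, FDR 0.421 for Mid against HiT, and -0.25 ± 0.15, FDR 0.38 for Dep against Mid), while both were below Pre (-0.79 ± 0.17, FDR 0.000791, and -1.19 ± 0.17, FDR 1.47e-05).

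Pde4b, which encodes a further PDE4 enzyme, had no cluster within the window, but a cluster of the Pde4b strand peaked at position 102570670 of chromosome 4, 575 bp inside its nearest annotated transcript. It lies outside the rule and is named because its values were seen. Its level was 27.2, 31.7, 28.9 and 28.8 TPM in Pre and 9.94 to 15.1 TPM in Mid, with a median of 12.2. Post libraries were at 22.9 to 31.5 TPM, HiT at 19.6 to 37.1, Fed at 24.3 to 31.5 and Dep at 12.7 to 17 TPM. Mid libraries were below all libraries of Pre, Post, HiT and Fed, and the Dep libraries overlapped with them.

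Read from this cluster, Pde4b was lower in Mid than in Pre by -1.14 ± 0.09 (FDR 1.34e-08), than in HiT by -1.26 ± 0.09 (FDR 1.74e-10) and than in Fed by -1.06 ± 0.09 (FDR 3.97e-08), and it rose from the Mid to Post by 1.13 ± 0.09 (FDR 2.62e-09). Dep was above Mid by 0.41 ± 0.1 (FDR 0.0287) and below Pre by -0.73 ± 0.11 (FDR 2.42e-05). HiT did not differ from Pre at the threshold (0.12 ± 0.11, FDR 0.404). Macrophage markers were higher in HiT than in Mid, as given above, and their part in the Pde4b values of HiT was not tested. In experiment 2 it changed by -0.82 ± 0.15 from the Pre to Mid and by 0.68 ± 0.13 from the Mid to Post (FDR 0.00839 and 0.00602).

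**Figure D3:**
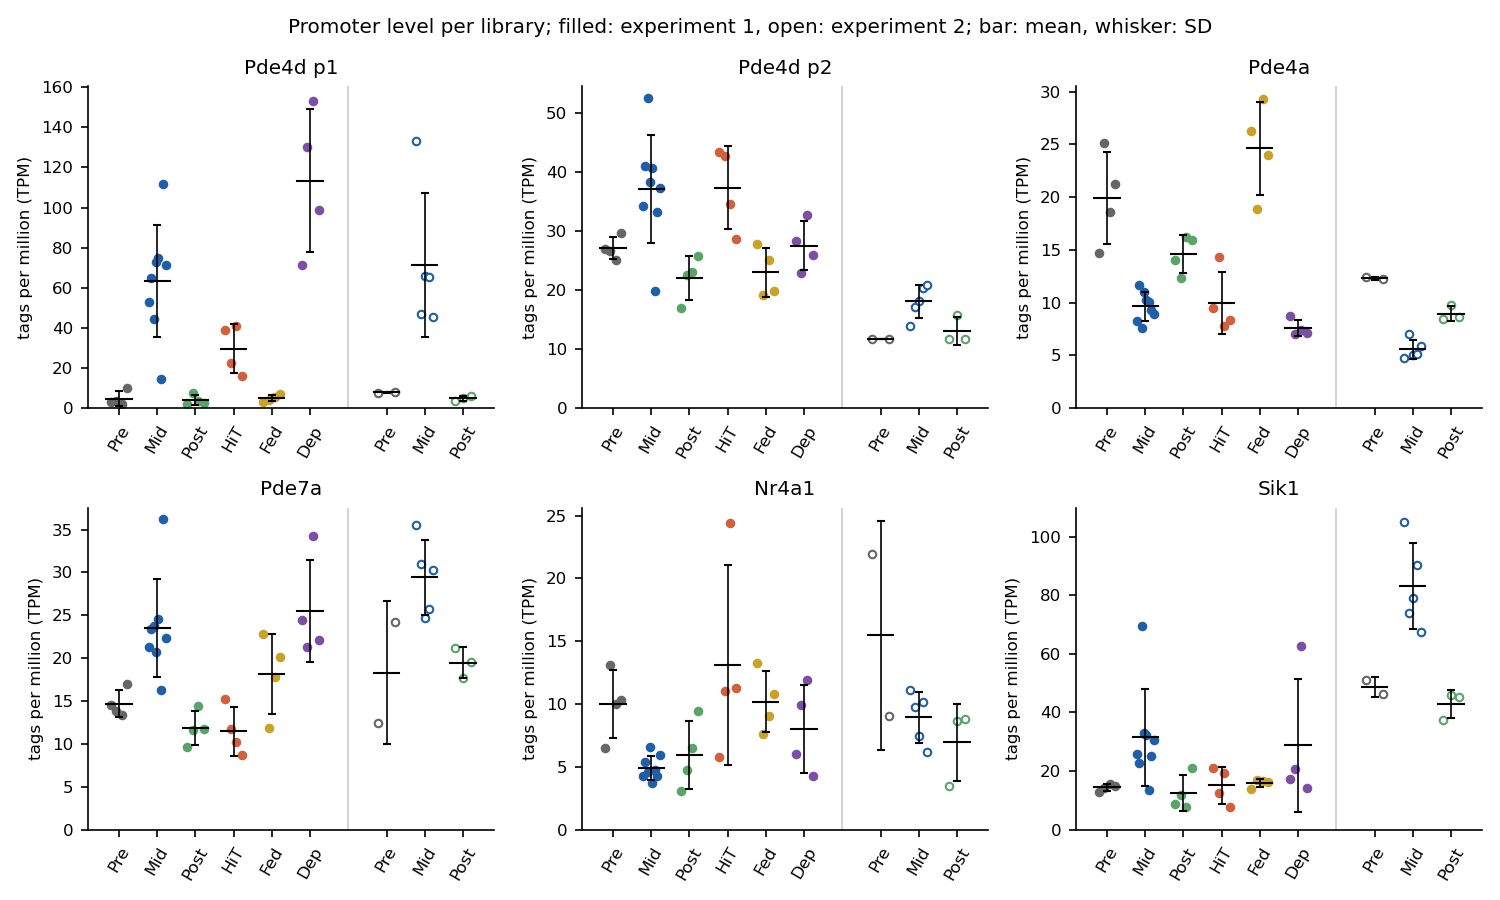
Level in TPM of 6 promoters in every library, by group, with filled points for experiment 1 and open points for experiment 2; the bar is the mean and the whisker the SD. Pde4d p1 is at 14.4 to 112 TPM in Mid and at most 10.1 TPM in Pre, and Pde4a is at 7.62 to 11.7 TPM in Mid and at least 14.7 TPM in Pre.

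Pde7a encodes a cyclic AMP phosphodiesterase of another family, one that rolipram, the classical PDE4 inhibitor, does not block. Its promoter was at 14.5, 13.9, 13.4 and 17 TPM in Pre and at 16.3 to 36.2 TPM in Mid, with a median of 22.9. It was at 9.59, 11.6, 14.4 and 11.7 TPM in Post. Only Mid 6 fell within the Pre range, and no Mid library overlapped with Post.

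Pde7a rose by 0.76 ± 0.15 (FDR 0.000526) from the Pre to Mid and fell by -1.01 ± 0.16 (FDR 1.83e-05) from the Mid to Post. HiT libraries, at 15.3, 11.7, 10.2 and 8.71 TPM, were all below the Mid libraries (Mid against HiT 0.95 ± 0.16, FDR 2.97e-05), and HiT did not differ from Pre at the threshold (-0.19 ± 0.17, FDR 0.43). Dep libraries, at 24.4, 21.3, 34.2 and 22.1 TPM, were above all Pre libraries (0.96 ± 0.17, FDR 0.000187) and all HiT libraries (1.15 ± 0.17, FDR 2.34e-05). Fed libraries spread from 11.9 to 22.8 TPM, and the excess of Mid over Fed (0.49 ± 0.15, FDR 0.0138) was lost under 5 of 36 alternatives, among them the fit without Fed 2. The order of means was Dep, Mid, Fed, Pre, Post and HiT, where Mid and Fed were the neighbours that differed.

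Nr4a1 encodes an orphan nuclear receptor that muscle is known to induce under adrenergic stimulation. It was at 6.5, 13.1, 9.98 and 10.3 TPM in Pre and at 3.69 to 6.56 TPM in Mid, with a median of 4.67. Post libraries were at 3.09, 4.77, 6.51 and 9.47 TPM. Pre 1 was the only Pre library inside the Mid range, and Post spread across both.

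Nr4a1 was lower in Mid than in Pre by -0.91 ± 0.3 (FDR 0.0234), a call lost in edgeR without Pre 2 (FDR 0.0866) or without Pre 3 (FDR 0.0622). The change from the Mid to Post was 0.2 ± 0.31 (FDR 0.652), and that from the Pre to Post was -0.71 ± 0.36 (FDR 0.411), so a return was not shown. HiT libraries were at 5.77, 11, 24.4 and 11.3 TPM, and Mid was lower by -1.59 ± 0.3 (FDR 0.000125). Without HiT 3, the highest library, this difference was -1.09 (FDR 0.00411 by edgeR). The macrophage markers that were higher in HiT are given above, and their part in the Nr4a1 values of HiT was not tested.

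Fed libraries, at 13.3, 7.59, 9.07 and 10.8 TPM, were all above the Mid libraries, and the difference of -0.93 ± 0.3 (FDR 0.0183) was lost without Fed 1 (-0.74, FDR 0.0934). Dep libraries were spread at 6.05, 9.89, 11.9 and 4.24 TPM, with no call against Mid (0.75 ± 0.3, FDR 0.176) or Pre (-0.16 ± 0.35, FDR 0.774). No neighbouring pair in the order HiT, Fed, Pre, Dep, Post and Mid differed at the threshold. Another cluster on the Nr4a1 strand, at -6173 bp from the nearest annotated start and outside the rule, was lower in Mid than in Fed (-0.92 ± 0.31, FDR 0.0211) and was not called between Pre and Mid (-0.02 ± 0.32, FDR 0.977).

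Crem encodes activators and repressors that act at cyclic AMP response elements, and an internal promoter of the gene is known to give the repressor ICER. Crem p1, at 3337623 of chromosome 18 on the minus strand, starts a transcript of 345 codons, and Crem p2, at 3281080, lies inside the gene and starts one of 119 codons. Crem p2 was at 7.98, 10.6, 10.3 and 10.5 TPM in Pre and at 5.21 to 11.8 TPM in Mid, with a median of 7.45. It was at 7.1, 8.9, 7.23 and 9.85 TPM in Post, inside the Mid range. It changed by -0.18 ± 0.19 (FDR 0.5) from the Pre to Mid and by -0.01 ± 0.19 (FDR 0.969) from the Mid to Post.

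Crem p1 was at 12.1 ± 1.29 TPM in Pre (n = 4), 10.9 ± 1.56 in Mid (n = 8) and 11.8 ± 2.14 in Post (n = 4), with changes of -0.07 ± 0.09 and 0.09 ± 0.09 (FDR 0.568 and 0.477). HiT had the lowest level of both promoters. Crem p2 was at 4.91, 5.97, 6.42 and 3.46 TPM there, below every Pre, Fed and Dep library (HiT against Pre -0.73 ± 0.22, FDR 0.0134, lost without HiT 1, and HiT against Fed -0.88 ± 0.22, FDR 0.00263). Mid was above HiT by 0.55 ± 0.2 at p2 (FDR 0.0288) and by 0.24 ± 0.09 at p1 (FDR 0.0348), calls that were lost under 5 and 7 of 36 alternatives. The share of p1 among the Crem tags was 55.2% ± 2.2 in Pre and 57.8% ± 6.78 in Mid, a difference of 2.62 points (exact permutation p = 0.491), and none of the 5 share comparisons of Crem was called.

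**Figure D4:**
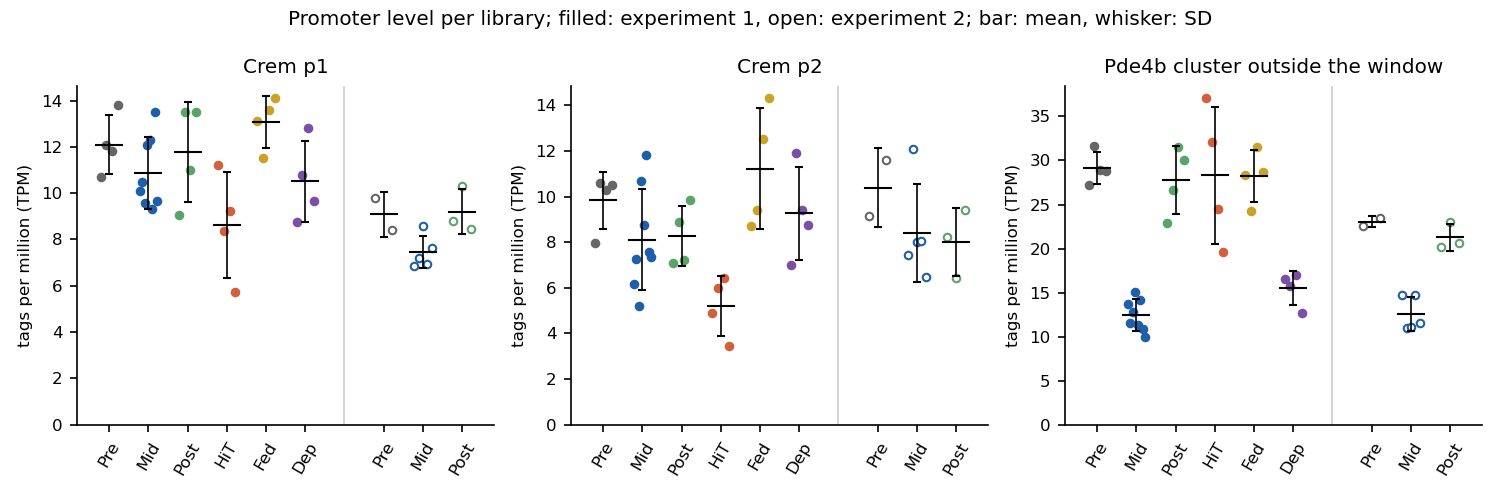
Level in TPM of the Crem promoters and of the Pde4b cluster outside the window, in every library by group, with filled points for experiment 1 and open points for experiment 2; the bar is the mean and the whisker the SD. Crem p2 is lowest in HiT, at 3.46 to 6.42 TPM, and the Pde4b cluster is at 9.94 to 17 TPM in Mid and Dep and at least 19.6 TPM in the other groups of experiment 1.

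Sik1 encodes a kinase that is known to be induced by cyclic AMP and to phosphorylate CREB coactivators and class IIa histone deacetylases. Its promoter was at 12.8, 14.3, 15.6 and 15 TPM in Pre and at 13.7 to 69.6 TPM in Mid, with a median of 28.2. It was at 8.69, 11.9, 7.77 and 21.2 TPM in Post. All Mid libraries but Mid 6 were above every Pre and Post library, and Mid 3 was far above the rest.

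Sik1 rose by 1.2 ± 0.34 (FDR 0.00829) from the Pre to Mid and fell by -1.4 ± 0.34 (FDR 0.00237) from the Mid to Post. Without Mid 3 the rise was 0.92 (FDR 0.015 by edgeR), and with limma on log2 TPM it missed the threshold (FDR 0.051). HiT libraries were at 21.1, 12.4, 19.3 and 7.7 TPM and Fed libraries at 13.8, 17, 16.5 and 16.3 TPM. Mid was above HiT by 0.99 ± 0.33 (FDR 0.0198), a call lost without HiT 2 or HiT 4 (FDR 0.0702 and 0.0616), and above Fed by 1.09 ± 0.34 (FDR 0.0135, lost without TMM and with limma). The Dep libraries were at 17.4, 20.7, 62.6 and 14.4 TPM, and the call against Pre (1.09 ± 0.37, FDR 0.0324) rested on Dep 3, without which the difference was 0.52 (FDR 0.281).

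The smaller experiment 2 repeated 2 of the comparisons in other mice. From the Pre to Mid it called 4 of the 10 promoters (9.74% of all clusters): Pde4d p1 (3.23 ± 0.47, FDR 0.00287), Pde4d p2 (0.68 ± 0.19, FDR 0.048) and Sik1 (0.82 ± 0.17, FDR 0.0161) were up-regulated and Pde4a was down-regulated (-1.07 ± 0.17, FDR 0.00367). Without Pre 5, which leaves 1 Pre library assumed to vary like the other groups, 2 of the 4 calls were left. From the Mid to Post it called 5 (16.4% of all clusters), Pde4a upward and Pde4d p1, Pde4d p2, Pde7a and Sik1 downward. The downward calls of Pde4d p2 and Pde7a were lost under 10 and 11 of 17 alternatives.

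Pde4d p1 was at 7.65 and 8.14 TPM in Pre, at 133, 47.2, 65.9, 65.5 and 45.6 TPM in Mid, and at 3.44, 5.13 and 6.22 TPM in Post of experiment 2, again with no overlap. Its share of the Pde4d tags was 19.1% ± 0.529 (n = 2), 61.3% ± 10.8 (n = 5) and 11.9% ± 3.39 (n = 3). Sik1 was at 51.1 and 46.4 TPM in Pre, at 67.3 to 105 TPM in the 5 Mid libraries and at 37.4, 45.9 and 45.4 TPM in Post. Levels differ between the experiments, and only changes within each were compared.

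Pde7a was at 12.4 and 24.2 TPM in Pre and 35.5, 31, 24.7, 25.7 and 30.3 TPM in Mid, and the rise of 0.76 ± 0.23 missed the threshold (FDR 0.0667). Nr4a1 was at 21.9 and 9.03 TPM in Pre and 6.21 to 11.1 TPM in Mid (-0.75 ± 0.39, FDR 0.265), and without Pre 5 its difference was 0.06. In this experiment all 3 Post libraries and 1 Mid library were sequenced on lane 4 and the others on lane 3, so lane and group are hard to tell apart in Post against Mid: with lane as a term 1 of the 5 calls was left. No member differed between the experiments in either change by the interaction test (0.0% of all clusters were called in Mid against Pre and 0.0% in Post against Mid, with no member at an unadjusted p below 0.05 and 515 and 563 clusters of all).

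The upstream parts of the pathway were read from a list of 69 genes for receptors, cyclases, protein kinase A, anchors, other phosphodiesterases and CREB cofactors, of which 40 had a cluster. From the Pre to Mid of experiment 1, 6 rose and 7 fell, with a median of 0.05 against 0.01 for all clusters, and without TMM scaling none rose and 5 fell. The 13 calls are 32.5% of the list, close to the 30.2% of all clusters. In experiment 2 none of the 40 rose and 4 fell (Pkia, Crhr2, Pde7b and Prkaca), so the other changes given here were not called in that comparison. Among the measured receptors, Calcrl and Crhr2 were lower in Mid (-0.38 and -0.69, FDR 0.0126 and 2.02e-05), and Ptger4, a prostaglandin receptor, was higher (0.48, FDR 0.013). The corticotropin-releasing hormone receptor gene Crhr2 and Calcrl both rose again in Post (0.84 and 0.4, FDR 8.48e-07 and 0.00737). The endothelial markers that moved between Pre and Mid are given above, and their part in the receptor values was not tested.

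Among the enzymes, the cyclase gene Adcy7 fell from 9.25 ± 1.1 to 4.94 ± 1.57 TPM from the Pre (n = 4) to Mid (n = 8), by a log2 change of -0.8 ± 0.22 (FDR 0.00785). Pkia, which encodes a protein kinase A inhibitor, fell from 40.6 ± 3.68 to 22.3 ± 2.8 TPM (-0.77 ± 0.12, FDR 2.53e-05) and rose to 47.5 ± 5.11 TPM in Post (1.07 ± 0.12, FDR 1.65e-07). Rapgef4, the gene of the exchange factor EPAC2, fell to 5.5 ± 0.997 TPM in Mid (-0.77 ± 0.17, FDR 0.00136). None of the 2 catalytic and 3 regulatory subunits of protein kinase A was called from the Pre to Mid in experiment 1, while in experiment 2 the catalytic subunit gene Prkaca was lower in Mid (-0.35 ± 0.1, FDR 0.0485). The coactivator gene Crtc2 rose (0.76 ± 0.26, FDR 0.0287), while Crtc1 fell (-0.4 ± 0.12, FDR 0.0143) and Crtc3 was not called (0.28, FDR 0.189). Crtc2 was also higher in Fed than in Pre (0.91 ± 0.29, FDR 0.0452). Mid and Fed did not differ at Crtc2 at the threshold (Mid against Fed -0.15, FDR 0.672). Sik3, the salt-inducible kinase paralog, rose by 0.48 (FDR 0.0267) from the Pre to Mid and fell in Post by -0.67 (FDR 0.00241).

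Against Fed the same list had 2 genes higher and 15 lower in Mid (median -0.17, and 0 higher and 11 lower without TMM), 42.5% of the list where 35.2% of all clusters were called. Beside this, 4 of 5 red blood cell markers were lower in Mid than in Fed, and of 8 endothelial markers 5 were lower and 2 higher, and their part in the counts was not tested. Against HiT it had 10 higher and 6 lower (4 and 1 without TMM), 40.0% of the list where 41.0% of all clusters were called. Cell markers that differed between HiT and Mid are given above, and their part in these counts was not tested. In that comparison Pde7b, a paralog of Pde7a, was at 36.3 ± 3.55 TPM in Mid and 20.4 ± 3.99 in HiT (0.73 ± 0.07, FDR 1.65e-08). Between Pre and Mid, Pde7b missed the threshold in experiment 1 (-0.13, FDR 0.174) and was lower in Mid in experiment 2 (-0.41 ± 0.11, FDR 0.0466). From the Mid to Post 9 rose and 8 fell, 42.5% of the list where 35.0% of all clusters were called. Between Dep and Mid 2 of 40 were called, both lower in Dep. That is 5.0% of the list, where 2.03% of all clusters were called.

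Known CREB target genes formed the other list, with 17 of 20 measured. The list was chosen with earlier results of these data known. Its counts describe these genes and are no test of a CREB response. From the Pre to Mid of experiment 1, 11 rose and none fell. That was 64.7% of the list where 30.2% of all clusters were called, with a median of 1.14 against 0.01 for all clusters. From the Mid to Post none rose and 13 fell, 76.5% of the list where 35.0% of all clusters were called. The median was -1.42 there. In experiment 2, 9 were higher and 1 lower in Mid than in Pre, where 9.74% of all clusters were called. From the Mid to Post of experiment 2, 13 fell, where 16.4% of all clusters were called. The counts were 10 to 12 risen and 0 or 1 fallen under the other scalings and tests of Mid against Pre in experiment 1. The largest of these rises were those of Ppargc1a (4.78 ± 0.67, FDR 7.07e-06), which encodes the coactivator PGC-1α, and Pdk4 (3.42 ± 0.29, FDR 2.05e-08), a kinase gene that restrains glucose oxidation. Tsc22d3, a glucocorticoid-induced gene, was at 198 ± 61.1 TPM in Mid and 70.7 ± 19.5 in Pre (1.57 ± 0.24, FDR 1.94e-05). Per1, a clock gene, was at 20.4 ± 4.66 and 7.63 ± 2.71 TPM (1.51 ± 0.24, FDR 3.2e-05), and the growth factor gene Bdnf at 9.52 ± 2.2 and 3.95 ± 0.807 TPM (1.34 ± 0.15, FDR 5.32e-07).

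Of the immediate early genes in the list, Junb (1.01 ± 0.13, FDR 3.36e-06), Atf3 (1.25 ± 0.25, FDR 0.00051) and Btg2 (1.33 ± 0.24, FDR 0.000132) were higher in Mid than in Pre. Egr1, Fos, Ier2 and Dusp1 were not called there (-0.06, 0.35, 0.1 and -0.34, FDR 0.879, 0.363, 0.534 and 0.0993). Against HiT 5 of the 17 targets were higher in Mid and 4 lower, 52.9% of the list where 41.0% of all clusters were called. Fos (-1.46 ± 0.26, FDR 8.29e-05) and Junb (-1.02 ± 0.12, FDR 2.14e-07) were among the lower ones and Klf9 (1.04 ± 0.13, FDR 5.64e-07) among the higher. The part of the macrophage markers, which were higher in HiT, in these differences was not tested. Against Fed 11 were higher in Mid and none lower, where 35.2% of all clusters were called. HiT and Dep had 10 and 12 higher than Pre and none lower, where 33.4% and 25.8% of all clusters were called. Dep differed from Mid at 3 of the 17, where 2.03% of all clusters were called. Of these 3, the stress-response genes Atf3 (0.88 ± 0.23, FDR 0.0427) and Dusp1 (0.71 ± 0.15, FDR 0.0163) were higher in Dep. Klf9 was lower in Dep (-0.51 ± 0.13, FDR 0.0378).

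**Figure D5:**
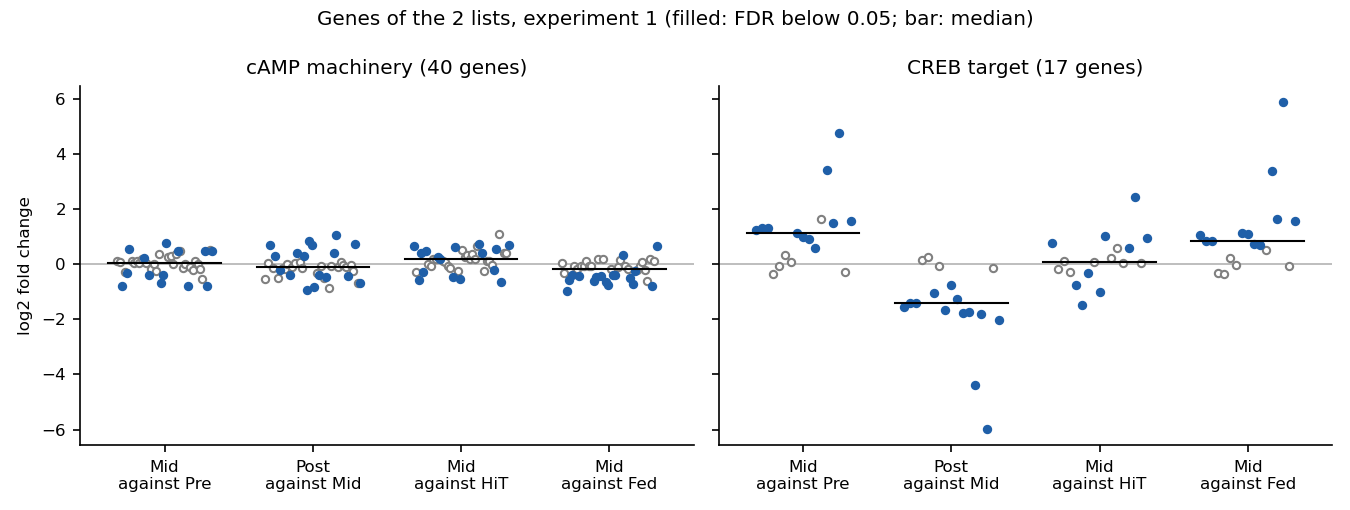
Log2 fold change of the 40 measured cyclic AMP machinery genes and the 17 measured CREB target genes in 4 comparisons of experiment 1, with filled points for an FDR below 0.05 and a bar at the median. From the Pre to Mid 6 and 7 machinery genes are filled above and below 0, and 11 and 0 target genes. In this comparison 30.2% of all clusters were called.

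Across the 28 libraries of experiment 1 the pattern of each gene's highest promoter was compared with all clusters of at least 1 count per 1000000 tags, as a description over libraries that share the group differences. Pde4d p1 was most like Ppp1r15a (Pearson's r 0.984 of log2 counts per 1000000 tags), Mafk (0.974) and Xirp1 (0.968). Sik1 was most like Siah1a (0.945), Rusc2 (0.926) and Rcan1 (0.918), and Pde4a like Tmem233 (0.931), 6430571L13Rik (0.921) and Trim7 (0.918). Pde7a was most like Ercc5 (0.914), Ppara (0.9) and Gpr157 (0.891). Crem p1 reached 0.808 with Tob1, and Nr4a1 at most 0.68, with Cyb5d2.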

How the data were processed

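nAnT-iCAGE libraries of soleus muscle were mapped by the authors to the mouse mm10 genome with bwa and hisat2 and clustered into promoters with PromoterPipeline. The deposited values used are tag counts per cluster and library and the authors' TPM (tags per 1000000), which scale the counts to library depth. From these, counts were normalised by TMM and tested per cluster in edgeR 4.0.16 (R 4.3.3, quasi-likelihood test, group only, 28 libraries of experiment 1 in 1 fit and 10 of experiment 2 in another), with Benjamini-Hochberg adjustment over all clusters with any tag and an FDR threshold of 0.05. Fold changes are of TMM-scaled counts. Errors are SE of log2 fold changes and SD of TPM. Shares of a gene's tags were compared by exact permutation tests (Python 3.11.15).

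Clusters were assigned within 500 bp of GENCODE vM21 5′ ends. Named were all members, genes from the up to 6 of each pathway list with the largest called changes per comparison (a choice among these, and some other list genes, made after their values were seen), and 3 like clusters per gene. One list gene is not reported here. The members and lists were chosen with earlier results of these data known. Alternatives were edgeR's likelihood ratio test, DESeq2 1.42.0, limma 3.58.1 on log2(TPM + 0.1), other scalings and filters, other windows, a replicate block, lane, the compared groups alone, all 38 libraries together, and leaving out each library. The tests were checked on simulated data. No pair of libraries in a group agreed within sampling noise: the lowest chi-square per cluster was 12.4 over 72 pairs.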

Additional observations from a re-analysis of the deposited data

Results flagged for a closer look

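Of 70 groups of 4 to 8 libraries checked over the 10 promoters, 6 held a library whose gap to its nearest neighbour was large for the range of the group. Chance gives about 1 in 20 such groups.

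In Sik1, library Mid 3 was at 69.6 TPM, with the next Mid library of experiment 1 at 32.9 TPM, and library Dep 3 was at 62.6 TPM, with the next at 20.7 TPM. In Pde7a, library Mid 7 was at 36.2 TPM and the next at 24.6 TPM. In Pde4d p1, library Mid 9 of experiment 2 was at 133 TPM and the next at 65.9 TPM. In Crem p2, library Pre 1 was the lowest of its group at 7.98 TPM, below 10.3 TPM, and library Mid 10 of experiment 2 was the highest at 12.1 TPM, above 8.05 TPM.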

How the results depend on the processing

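No called result turned its direction under any alternative. Of 47 single calls, 24 were kept under every alternative, and 132 of 1505 refitted values no longer passed the threshold. The 7 calls of Mid against HiT became 4 without TMM, 4 with limma on log2 TPM and 3 with only the compared groups. The 5 calls of HiT against Pre became 3 without TMM. The 5 calls of Post against Mid in experiment 2 became 3 without TMM, with upper-quartile scaling or with limma, and 1 with the sequencing lane as a term. The 6 differing neighbour pairs became 2 without TMM, 3 with limma and 1 with only the compared groups. With a window of 1000 bp 7 of 11 promoters were called in Mid against Pre, Pde4b among them, and with 100 bp 5 of 7.

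Samples of the same number in different groups did not deviate together (median correlation -0.0731 over 60 pairs, against 0.00561 for 260 other pairs, and 17 of the 60 over 0.1), so they share only a number. With a replicate block the calls of Mid against HiT numbered 4 and the differing neighbour pairs 1, and Nr4a1 in Mid against Pre was lost.

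Leaving out 1 library at a time gave 5 to 6 calls in Mid against Pre and in Post against Mid, 5 to 7 in Mid against Fed, 2 to 7 in Mid against HiT (2 without HiT 2 or HiT 4), 4 to 6 in HiT against Pre, 3 to 4 in Dep against Pre, 6 to 10 for any difference, 4 to 7 neighbour pairs, and 3 to 5 share calls. In experiment 2 it gave 2 to 4 in Mid against Pre and 3 to 5 in Post against Mid.

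Without TMM the median log2 fold change of all clusters shifted to 0.11 in Mid against HiT, -0.12 in Mid against Fed, -0.13 in HiT against Pre and -0.18 in Dep against Pre. The share of higher calls among all clusters moved from 51.0% to 36.6% in Mid against Pre and from 47.1% to 23.3% in Mid against Fed.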
